A study of Mus musculus with 60 samples.

Results

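Lyve1, Adgrg3 and Cxcl15 are 3 of the 56980 genes counted in fibroblasts of the Ercc1 mouse, and they were chosen by their loss in reprogrammed Ercc1-deficient cells. Each had 1 row in both count tables and each passed the filter on low counts. Because the choice rests on the D/KO reprogramming libraries, all values from those libraries are given below as a description, without a test, and the tests come from WT cells and from separate inhibitor libraries.

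The data were RNA sequencing counts from 60 libraries in 20 groups of 3. In the reprogramming libraries, D/KO cells (Ercc1 Δ/- tail tip fibroblasts of a male mouse of 8 weeks) and WT cells (the 4F line with an OCT4-GFP reporter, from a female mouse of 22 weeks) both carried a doxycycline-inducible cassette for Oct4, Sox2, Klf4 and c-Myc in the Col1a1 locus and the rtTA activator in ROSA26. Doxycycline (2 µg/ml) was given for 0, 2 or 4 days, either alone or together with VC, a mixture of ascorbic acid (50 µg/ml) and CHIR99021 (3 µM). In the inhibitor libraries, tail tip fibroblasts of a female Ercc1 d/- mouse of 4 weeks were untreated (control D/KO) or received 0.1 µM Repsox, 0.1 µM Vactosertib, 1 µM DMH-1 or 1 µM A83-01 for 3 days. WT tail tip and WT skin fibroblasts (ERCC1 +/+, female, 14 weeks, untreated) and a group of the WT 4F line (22 weeks) labelled TGFB completed that table. Genotype, age and mouse changed together between D/KO and WT cells, and in the reprogramming libraries sex did too, so they cannot be told apart. As far as the labels show, the 3 libraries of a group came from 1 line each, so p-values measure only the spread between these libraries, which may be technical.

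Lyve1 encodes a hyaluronan receptor of the endothelium of lymphatic vessels, also found on some macrophages, and is a relative of the widely expressed receptor Cd44. Adgrg3, also called Gpr97, encodes an adhesion G protein-coupled receptor known from granulocytes and from lymphatic endothelium. Cxcl15, or lungkine, encodes a mouse CXC chemokine known from lung epithelium that attracts neutrophils. None of them is a usual marker of fibroblasts.

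On the GRCm39 build as given in the deposited tables, Lyve1 (ENSMUSG00000030787) lies on the minus strand of chromosome 7 at chr7:110449814-110462446, with 6 merged exons of 2919 bases. Adgrg3 (ENSMUSG00000060470) lies on the plus strand at chr8:95744320-95771878, with 12 merged exons of 6905 bases, and begins 2292 bases after the end of its relative Adgrg1. Cxcl15 (ENSMUSG00000029375) lies on the plus strand at chr5:90942393-90950926, with 4 exons of 2127 bases, in a cluster of CXC chemokine genes where Cxcl3 ends 4934 bases before it. The noncoding gene Gm51544 overlaps Adgrg3 and the microRNA gene Gm55976 overlaps Cxcl15, both on the other strand. The strand setting of the counting is not given in the sources used here, so reads from these partners cannot be told apart from reads of the 2 members.

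Promoters are shown because the RNA of both genes was lower in several groups and the sequence lets their start regions be compared. RefSeq windows (table build GRCm38.p6) were found for Adgrg3 and Cxcl15, and the 250 bases before each start matched GRCm39 exactly at chr8:95744070-95744319 and chr5:90942143-90942392, both on the plus strand. Capitals mark the only match among the 8 motifs searched.
Adgrg3: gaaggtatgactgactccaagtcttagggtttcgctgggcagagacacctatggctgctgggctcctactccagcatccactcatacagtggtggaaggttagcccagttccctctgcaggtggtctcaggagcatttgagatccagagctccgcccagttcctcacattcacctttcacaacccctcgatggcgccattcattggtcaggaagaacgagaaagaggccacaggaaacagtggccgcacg
Cxcl15: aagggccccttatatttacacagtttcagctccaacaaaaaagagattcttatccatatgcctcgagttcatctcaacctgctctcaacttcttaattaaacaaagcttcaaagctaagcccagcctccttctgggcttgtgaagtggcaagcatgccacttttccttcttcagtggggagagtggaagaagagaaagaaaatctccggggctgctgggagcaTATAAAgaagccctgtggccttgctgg
The search covered both strands of the full windows, which also hold 50 bases after the start. The letters searched were TGANTCA for AP-1, GTCTAGAC for the Smad palindrome, CAGAC for the shorter Smad element, ATGCAAAT for Oct factors, CACGTG for the E-box, TATAAA for the TATA box, AGATAA for GATA factors and GGGANTTCC for NF-kB. The Cxcl15 window held TATAAA from 27 to 22 bases before the start, as 13.6% of 32851 mouse windows do, and CAGAC 2 times after the start, a motif in 49.6% of the windows. The 2 Smad motifs share the letters AGAC. In the Adgrg3 window none of the 8 motifs was found, which says only that these letters are not there.

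The reprogramming libraries held between 16538374 and 18484951 counts each and the inhibitor libraries between 17102639 and 30599138. Levels are given as CPM, a gene's counts as a part of each library's total, with totals scaled by TMM within each table, so that levels are ordered only within a table. Ercc1 itself read 8.04 to 18.6 CPM in the 18 D/KO and 16.9 to 29.1 CPM in the 18 WT reprogramming libraries, with an overlap, and 13.2 to 23.5 and 13.3 to 47.8 CPM in the D/KO and WT inhibitor libraries. All 10 fibroblast markers were counted in each group. The summed level of 8 blood endothelial markers was 797 to 890 CPM in the D/KO day 0 libraries against 15.2 to 17.9 CPM in the WT day 0 libraries, so the D/KO cells held RNA of endothelial genes beside that of fibroblasts. In bulk libraries, fewer cells of a type and less RNA per cell cannot be told apart.

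At day 0, D/KO cells expressed the 3 genes at clearly unequal levels. Per kilobase of exon, the level was 16.0 ± 0.842 CPM per kb for Lyve1, 4.30 ± 0.508 for Adgrg3 and 1.09 ± 0.318 for Cxcl15 (SD, n = 3). WT cells at day 0 showed another order, with Cxcl15 at 3.50 ± 0.707 CPM per kb, Lyve1 at 0.0189 ± 0.0328 and Adgrg3 at 0.0130 ± 0.0162. At day 0, Lyve1 and Adgrg3 were thus read almost only in D/KO cells, whereas Cxcl15 was read in both lines.

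In D/KO cells, Lyve1 was lower at each later day. Lyve1 read 47.4, 48.6 and 43.8 CPM at day 0, 8.68, 9.17 and 5.23 CPM at day 2, and 0.217, 0.470 and 0.486 CPM at day 4. No day 2 library reached a day 0 library, and no day 4 library reached a day 2 library. The day 4 mean was 0.839% of the day 0 mean and rested on 22 counts in 3 libraries. The starting level was lower with VC, at 27.8, 31.1 and 21.3 CPM at day 0 plus VC, or 57.3% of the level without VC. Of the 15 lymphatic and blood endothelial markers, 10 were also lower in D/KO cells at day 0 with VC than without it, with a median of 38.9% over the 15. Of these 10, 9 stood at a smaller share than Lyve1, such as the blood markers Cdh5 at 37.1% and Pecam1 at 35.6%. The 5 higher ones were the blood marker Vwf (1821%) and the lymphatic markers Pdpn (213%), Mmrn1 (200%), Reln (163%) and, on few counts, Ccl21a (290%). The part of the endothelial markers in the Lyve1 and Adgrg3 values was not tested. With VC, Lyve1 then read 3.18, 1.60 and 1.46 CPM at day 2 and 0.793, 0.724 and 0.105 CPM at day 4. The third day 4 library, with 2 counts, was far lower than the other two. Day 4 values with and without VC overlapped.

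Adgrg3 was also lower at each later day. Adgrg3 read 28.9, 26.6 and 33.5 CPM at day 0, 6.90, 6.15 and 9.87 CPM at day 2, and 0.869, 0.941 and 1.67 CPM at day 4. The day 4 mean was 3.91% of day 0, and the libraries of the 3 days did not overlap. With VC, Adgrg3 read 11.8, 15.4 and 9.26 CPM at day 0, 1.56, 1.60 and 1.46 CPM at day 2, and 0.423, 0.613 and 0.211 CPM at day 4. The day 4 plus VC level was 3.42% of its own day 0 and 1.40% of day 0 without VC.

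Cxcl15 behaved differently from the other two at the start of the VC arm. Cxcl15 read 2.64, 2.76 and 1.53 CPM in D/KO cells at day 0 and 7.83, 10.0 and 8.28 CPM at day 0 plus VC, so the VC libraries were all higher, by 3.77-fold in the means. Without VC, it read 1.78, 2.67 and 0.763 CPM at day 2, which overlapped day 0, and 0.543, 0.575 and 1.03 CPM at day 4, which did not. With VC, it read 0.347, 0.414 and 0.448 CPM at day 2. At day 4 plus VC only 1 count was left, with 0, 1 and 0 counts in the 3 libraries. Against the 372 counts of day 0 plus VC this is a ratio of 0.00207, with an exact 95% interval from 5.22e-05 to 0.0116 that covers counting error only. Against day 0 without VC, which had 114 counts, the ratio was 0.00778 (0.000195 to 0.0442).

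**Figure D1:**
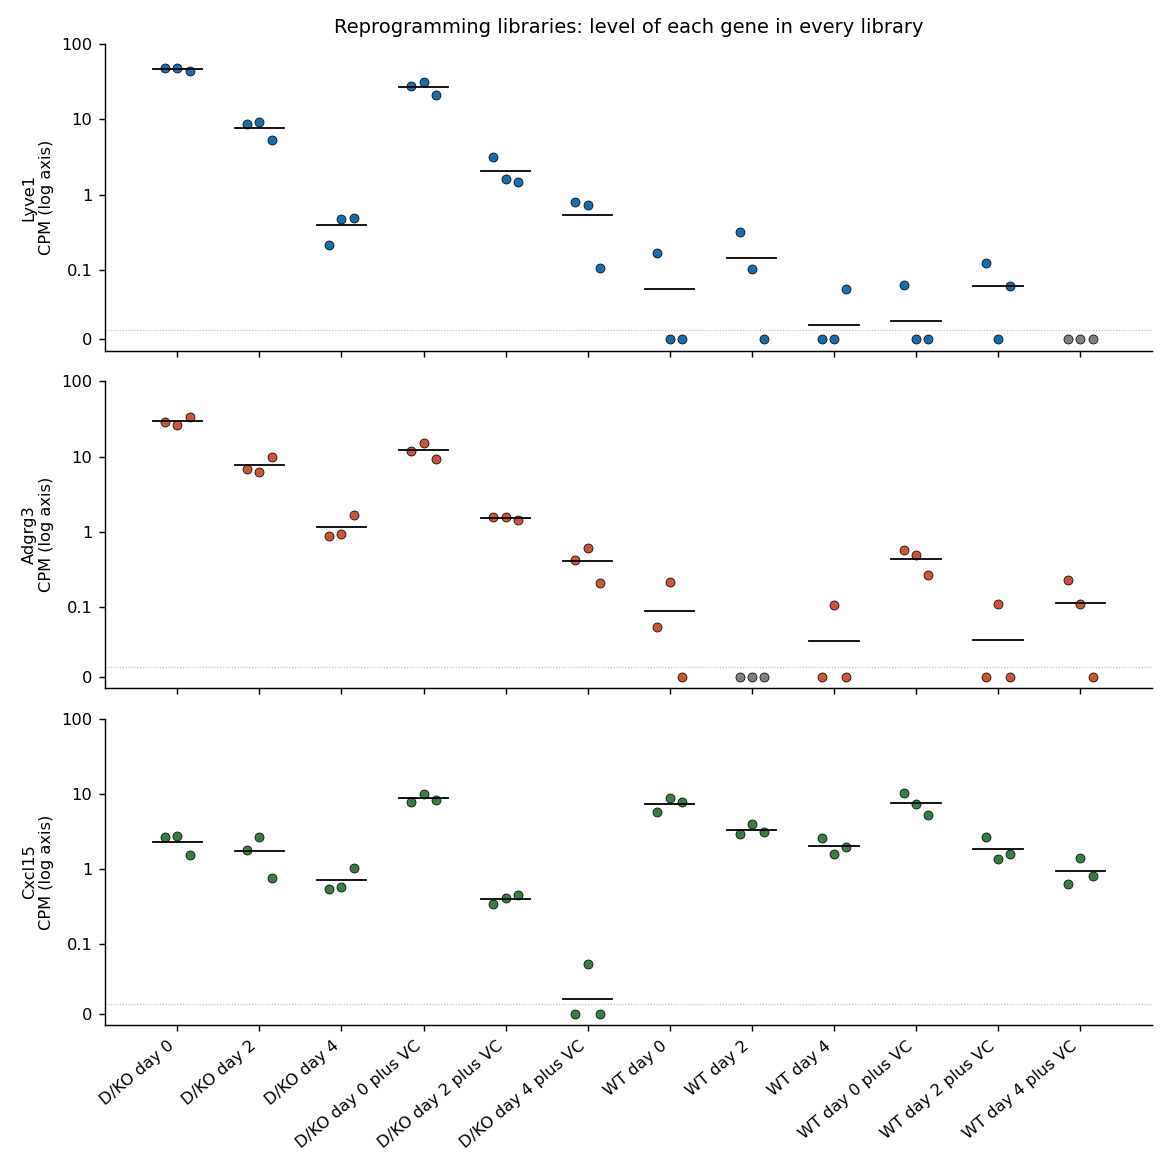
CPM of Lyve1, Adgrg3 and Cxcl15 (rows, log axis with libraries at 0 drawn below the dotted line) in each of the 36 reprogramming libraries, with 3 points per group and a bar at the group mean. Lyve1 and Adgrg3 descend from day 0 to day 4 in the D/KO groups and stay near 0 in all WT groups, while Cxcl15 descends in both and is highest at D/KO day 0 plus VC (8.71 CPM).

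The place of the 3 genes among the 15832 genes tested shows how the choice came about. By fitted log2 fold change at D/KO day 4, Lyve1 ranked 3 from the largest fall (-6.87), between Gm19385 (-7.17) and Kcnj8 (-6.65), the latter a potassium channel subunit. Adgrg3 ranked 22 (-4.67), between Gm9057 (-4.74) and the bradykinin receptor Bdkrb1 (-4.57). Cxcl15 ranked only 708 (-1.68), next to Il4ra and Ppara (both -1.68). At D/KO day 4 plus VC, Cxcl15 ranked 1, ahead of the cytokine receptor Il31ra (-7.75), though its fitted value rests on 1 count. Lyve1 ranked 35 (-5.62), between Fgf12 (-5.67) and Gm10419 (-5.53), and Adgrg3 ranked 67 (-4.86), between Ccno (-4.86) and Gdpd2 (-4.84). Il31ra shared the rise with VC at D/KO day 0, from 0.709 ± 0.159 to 9.21 ± 1.97 CPM.

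Endothelial markers were read beside these values in the D/KO groups. At day 4 without VC, 8 of 15 lymphatic and blood endothelial markers stood under 50% of their day 0 mean and the median marker stood at 35.4%, while 3 stood above 100%, namely Tek at 377%, Vwf at 170% and Ccl21a, on few counts, at 133%. Cdh5, the endothelial cadherin, stood at 19.7% and Prox1, the transcription factor of lymphatic endothelium, at 18.2%, against 0.839% for Lyve1. Pecam1 stood at 61.5% and Tie1 at 59.6%. At day 4 plus VC, Tek was at 1253%, Pecam1 at 339%, Tie1 at 490% and Cdh5 at 68.5% of day 0 plus VC, with Lyve1 at 2.02% and Adgrg3 at 3.42%. Against day 0 without VC, the same markers stood at 363%, 121%, 191% and 25.4%, and Lyve1 at 1.16%. On that baseline 10 of the 15 markers stood under 50% and 4 above 100%, with a median of 26.8%. On the baseline with VC 8 of the 15 markers stood under 50% and 4 above 100%, with a median of 40.3%, and the lower markers included Mmrn1 at 3.99%, Vwf at 10.0%, Emcn at 14.7% and Reln at 19.9%. Macrophage markers summed to 6.12 to 9.96 CPM at D/KO day 0 and 3.45 to 4.86 CPM at day 4, and to 6.48 to 8.03 CPM at day 0 plus VC and 4.18 to 5.42 CPM at day 4 plus VC. Keratinocyte markers summed to 2.18 to 3.48 CPM at day 0 and 45.8 to 62.6 CPM at day 4, and with VC to 4.82 to 6.54 CPM and 342 to 473 CPM. Fibroblast markers summed to 80071 to 119035 CPM at day 0 and 37379 to 38984 CPM at day 4, and with VC to 183619 to 253190 CPM and 33114 to 34280 CPM. Of the 11 neutrophil markers, Cxcr2 and Retnlg had no count in any reprogramming library, while Ly6g had 200 counts over 23 of the 36 libraries, S100a8 had 126 over 26 and Camp had 55 over 19. Of the 6 lung epithelial markers, Sftpa1, Sftpd and Nkx2-1 had none, and Scgb1a1 had 142 counts over 20 libraries. The part of these other cell type genes in the values of the 3 genes was not tested.

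**Figure D2:**
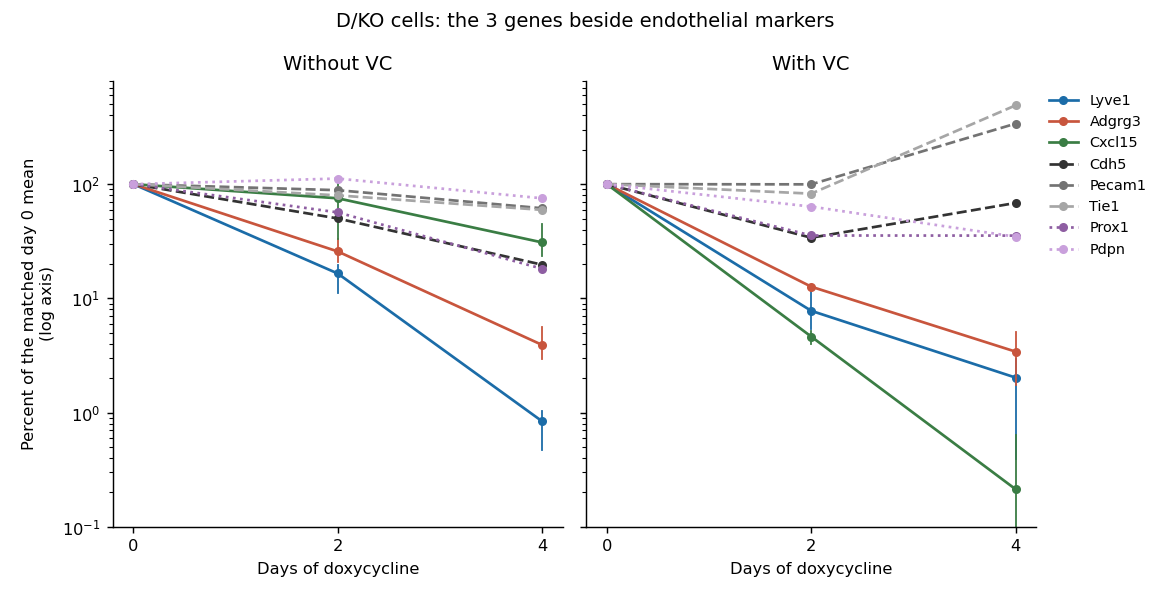
Mean level in D/KO cells as a percent of the matched day 0 mean (log axis) against days of doxycycline, without VC (left) and with VC (right), for the 3 genes (solid lines, vertical bars from the lowest to the highest of 3 libraries, cut off at the axis where a library is at 0) and 5 endothelial markers (broken lines). Lyve1 and Adgrg3 end at 0.839% and 3.91% without VC, below all markers drawn, and Pecam1 and Tie1 end above 100% with VC. The 5 markers drawn were picked from 15. Those not drawn include Mmrn1 at 3.99% and Tek at 1253% on day 4 with VC, beside 3.42% for Adgrg3.

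The WT cells allowed a test of Cxcl15, since none of the WT contrasts chose the genes. Cxcl15 fell in all 4 reprogrammed WT groups. In WT cells without VC, Cxcl15 read 5.80, 8.75 and 7.76 CPM at day 0, 2.96, 4.01 and 3.08 CPM at day 2 and 2.56, 1.59 and 1.99 CPM at day 4. The 3 days did not overlap. In the quasi-likelihood test of edgeR, with p-values adjusted by Benjamini-Hochberg over all genes, the log2 fold change was -1.15 ± 0.31 (SE) at day 2 (adjusted p = 0.0115) and -1.86 ± 0.32 at day 4 (adjusted p = 3.49e-05). In these comparisons 10.6% and 24.5% of all genes tested were called. The call at day 2 was lost without WT day 0 replicate 2 (adjusted p = 0.0625) or without WT day 2 replicate 3 (adjusted p = 0.0547).

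With VC the fall of WT Cxcl15 was larger in fitted size. Cxcl15 read 10.2, 7.43 and 5.31 CPM in WT cells at day 0 with VC, 2.64, 1.37 and 1.58 CPM after 2 days, and 0.639, 1.43 and 0.807 CPM after 4 days. All libraries of days 2 and 4 were below those of day 0 plus VC. The edgeR log2 fold change was -2.04 ± 0.33 after 2 days (adjusted p = 8.54e-06) and -2.98 ± 0.36 after 4 days (adjusted p = 1.33e-08), beside 27.5% and 44.7% of all genes called. Day 4 plus VC thus held 12.5% of its day 0 level in WT cells, against 1 count in D/KO cells, a difference between genotypes that was not tested. VC alone left Cxcl15 in WT cells at a log2 difference of 0.04 with a 95% interval from -0.57 to 0.64 (adjusted p = 0.951 by edgeR), where 29.4% of all genes were called.

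Markers of cell types also moved in these WT groups. With VC, the 10 fibroblast markers summed to 155632 to 171386 CPM at WT day 0 and 60940 to 72058 CPM at day 4, and 5 of them were called lower and 3 higher (edgeR, median log2 change -0.24), against 22% of all genes lower and 22.7% higher. Among them were the collagen genes Col1a1 (-2.28 ± 0.16) and Col1a2 (-1.51 ± 0.14), Lum (-1.23 ± 0.13) and, in the other direction, the protease gene Fap (2.95 ± 0.19). Of 9 tested macrophage markers 2 were called lower, Csf1r (-2.01 ± 0.31) and Adgre1 (-1.17 ± 0.39), and 0 higher, with sums of 33.0 to 42.8 CPM at day 0 and 20.1 to 25.3 CPM at day 4. Keratinocyte markers summed to 3.93 to 4.61 CPM and 14.9 to 16.1 CPM, and Krt14 went from 0.0205 CPM (1 count) to 6.59 CPM. Of the endothelial markers that these libraries brought past the filter, 2 of 3 lymphatic ones were called lower, Flt4 (-0.84) and Pdpn (-0.66), and 1 of 2 blood ones higher, Tek (4.39). After 2 days with VC, 5 fibroblast markers were called lower and 4 higher (median -0.09), where 27.5% of all genes were called in either direction. Without VC, fibroblast markers summed to 52064 to 53834 CPM at WT day 0 and 45956 to 48216 CPM at day 4. At day 4, 2 of them were called lower and 4 higher (median 0.23), beside 24.5% of all genes called in either direction. At day 2, 0 were called lower and 3 higher (median 0.16), beside 10.6% of all genes. The part of these marker genes in the fall of Cxcl15 was not tested.

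Lyve1 and Adgrg3 were near the limit of detection in WT cells. Lyve1 had from 0 to 6 counts in the 18 WT libraries, and 0 in all 3 at day 4 plus VC, which at a floor of 3 counts over the group leaves no fold change to be stated. Adgrg3 had from 0 to 9 counts. Both genes passed the filter on low counts in this table only through the D/KO groups, so their WT values are given as counts, without a test. The counts of Adgrg3 were 1, 4 and 0 at WT day 0 and 9, 8 and 4 at day 0 plus VC, a ratio of 5.01 with an exact 95% counting interval from 1.84 to 17.0. The VC libraries were all higher in CPM, though 1 of them only equalled the highest library of day 0 in its count. Adgrg3 then had 2 counts in all at day 2 plus VC, a ratio of 0.0882 (0.0100 to 0.361), and 6 at day 4 plus VC, a ratio of 0.249 (0.0824 to 0.639). These intervals cover counting error only, not the spread between libraries.

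Order of levels across the 12 reprogramming groups differed between the genes. For Lyve1 the order was D/KO day 0, day 0 plus VC, day 2, day 2 plus VC, day 4 plus VC and day 4, followed by the 6 WT groups. The first 4 of these were each separate from the next, and from D/KO day 4 plus VC downwards each group overlapped its neighbour. For Adgrg3 the order was D/KO day 0, day 0 plus VC, day 2, day 2 plus VC and day 4, with WT day 0 plus VC (0.442 ± 0.158 CPM) at the level of D/KO day 4 plus VC (0.415 ± 0.201). For Cxcl15 the 3 highest groups were D/KO day 0 plus VC (8.71 ± 1.15 CPM), WT day 0 plus VC (7.64 ± 2.44) and WT day 0 (7.44 ± 1.50), which overlapped, and D/KO day 0 ranked only 5 (2.31 ± 0.677).

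The inhibitor libraries came from another D/KO mouse and show the genes without reprogramming. Repsox, Vactosertib and A83-01 inhibit the TGFb type I receptor, and DMH-1 inhibits BMP type I receptors. Per the paper, Vactosertib inhibits receptors of both kinds. All 3 genes fell with A83-01, Lyve1 fell with Repsox and with Vactosertib, and no change was called with DMH-1. A call of Adgrg3 with Repsox was lost whenever 1 of the 6 libraries compared was left out.

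Lyve1 read 25.3, 27.6 and 29.6 CPM in control D/KO cells and 1.92, 4.24 and 3.47 CPM with A83-01. The A83-01 libraries lay far below the controls, at 11.7% of their mean, with an edgeR log2 fold change of -3.10 ± 0.30 (adjusted p = 4.46e-07). Adgrg3 read 11.8, 11.7 and 14.6 CPM in the controls and 3.31, 3.89 and 3.59 CPM with A83-01, a log2 change of -1.82 ± 0.22 (adjusted p = 7.09e-06 by edgeR). Cxcl15 read 7.62, 6.93 and 6.49 CPM in the controls and 2.54, 3.55 and 3.47 CPM with A83-01, a log2 change of -1.14 ± 0.23 (adjusted p = 0.000998 by edgeR). None of the 3 groups overlapped its controls, and 32.6% of all genes tested were called with A83-01. By order of fall, Lyve1 ranked 117, Adgrg3 421 and Cxcl15 1006 of 15164 genes.

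With Repsox, Lyve1 read 12.3, 5.61 and 10.2 CPM, all below the controls, a log2 change of -1.55 ± 0.27 (adjusted p = 0.000421 by edgeR, 25.2% of genes called). Adgrg3 read 9.29, 6.61 and 9.18 CPM with a change of -0.60 ± 0.21 (adjusted p = 0.0468 by edgeR), just under the threshold. Leaving out control D/KO replicates 1, 2 or 3 gave adjusted p of 0.0663, 0.0713 and 0.175, and leaving out Repsox replicates 1, 2 or 3 gave 0.0552, 0.135 and 0.0597 by edgeR. Cxcl15 read 5.52, 6.53 and 5.62 CPM, overlapping the controls, with a change of -0.26 and a 95% interval from -0.73 to 0.22.

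With Vactosertib, Lyve1 read 14.7, 11.9 and 9.51 CPM, again all below the controls, a log2 change of -1.18 ± 0.27 (adjusted p = 0.0043 by edgeR, 22.1% of genes called). Adgrg3 read 11.4, 7.79 and 8.36 CPM with a change of -0.45 (95% interval -0.90 to -0.01, adjusted p = 0.146 by edgeR), and Cxcl15 read 6.70, 4.42 and 5.01 CPM with a change of -0.38 (-0.85 to 0.10, adjusted p = 0.268 by edgeR). With DMH-1, Lyve1 read 19.5, 25.4 and 23.0 CPM, Adgrg3 8.96, 14.2 and 10.3 CPM and Cxcl15 6.42, 7.31 and 5.93 CPM. These overlapped the controls, with intervals of the log2 change from -0.83 to 0.28, from -0.62 to 0.26 and from -0.56 to 0.38, where 9.75% of all genes were called.

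**Figure D3:**
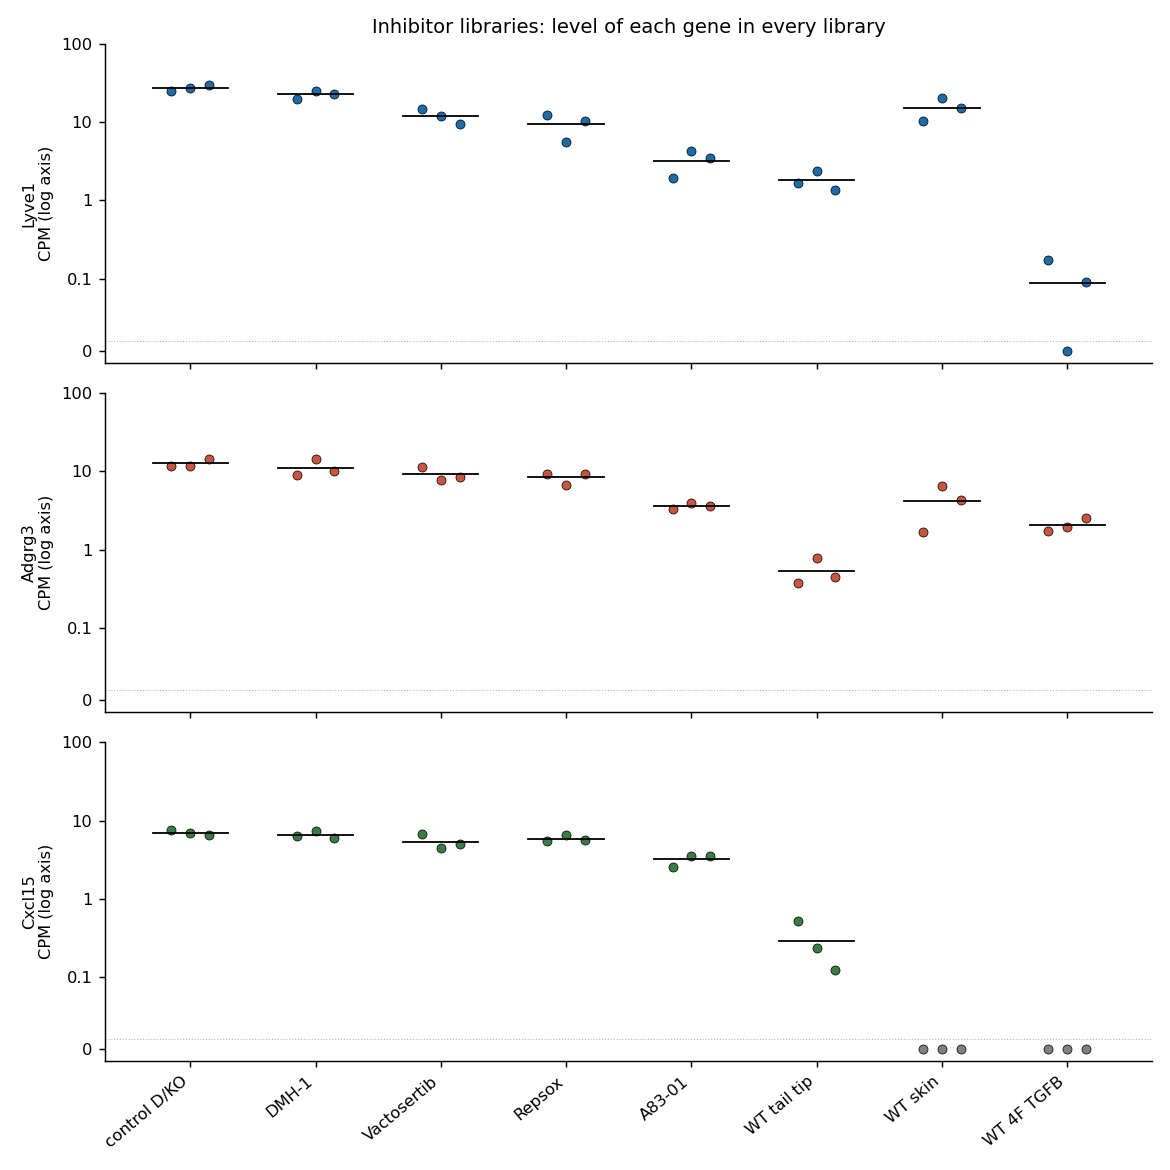
CPM of the 3 genes (rows, log axis with libraries at 0 below the dotted line) in each of the 24 inhibitor libraries, 3 points per group with a bar at the mean. Lyve1 steps down from control D/KO (27.5 CPM) to A83-01 (3.21 CPM), and Cxcl15 is at 0 in all WT skin and WT 4F libraries.

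Only 2 pairs of compounds were used at matched doses, which gave 6 comparisons of these genes. At 1 µM, A83-01 was lower than DMH-1 by edgeR for Lyve1 (log2 difference -2.82 ± 0.29, adjusted p = 1.79e-06), Adgrg3 (-1.64 ± 0.22, adjusted p = 3.08e-05) and Cxcl15 (-1.05 ± 0.23, adjusted p = 0.00258). Of all genes, 25.4% were called between these compounds. At 0.1 µM, Repsox and Vactosertib did not differ beyond the spread, with 95% intervals of the log2 difference from -0.95 to 0.21 for Lyve1, from -0.60 to 0.30 for Adgrg3 and from -0.35 to 0.60 for Cxcl15. edgeR called 0 of 15164 genes (0%) between them, with 452 at an unadjusted p under 0.05, and DESeq2 called 8. The 2 pairs were used at different doses and are not compared with each other.

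**Figure D4:**
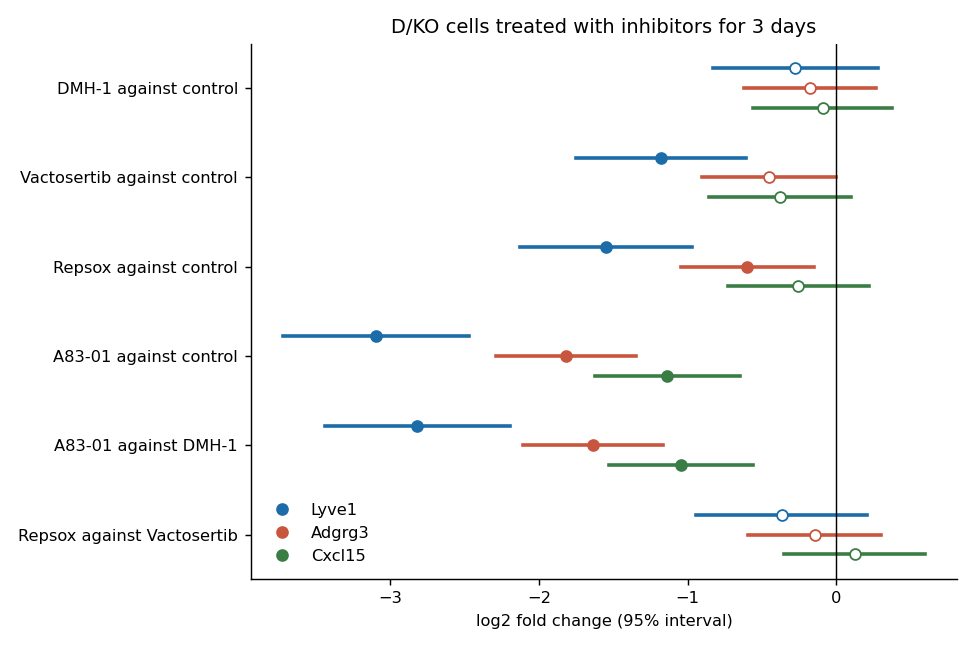
log2 fold change (points) with 95% intervals (lines) of the 3 genes for each inhibitor against control D/KO cells and for the 2 pairs at matched dose, filled where the adjusted p is under 0.05. The A83-01 points lie at -3.10, -1.82 and -1.14, and the intervals of DMH-1 all span 0.

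Endothelial markers were also read beside the inhibitor results. With A83-01, 6 of 8 blood endothelial markers were called lower and 1, Tek, higher, with a median log2 change of -1.15, and 4 of 6 tested lymphatic markers were called lower and 1 higher, with a median of -1.31. Cdh5 went from 132 ± 21.1 to 36.5 ± 10.7 CPM, a log2 change of -1.86 ± 0.31 (adjusted p = 0.000166 by edgeR), between those of Lyve1 and Adgrg3 in fitted size. Sox18 (-2.41 ± 0.16) and Mmrn1 (-2.20 ± 0.37) fell further than Cdh5. Of all genes tested, 16.2% were called lower and 16.4% higher with A83-01. Under Repsox, where Lyve1 fell, 1 of the 8 blood endothelial markers was called lower and 2 higher (edgeR, median log2 change -0.09), and 2 of the 6 lymphatic markers were called lower and 0 higher (median -0.64), against 11.8% of all genes called lower and 13.4% higher. Under Vactosertib, no blood endothelial marker was called lower and 1, Tek, higher (0.71 ± 0.13, median of the list -0.05), while 1 of the 6 lymphatic markers, Pdpn, was called lower (-0.89 ± 0.10) and 0 higher (median -0.41), against 10.3% of all genes called lower and 11.8% higher. With DMH-1, 2 blood endothelial markers, Tek (0.58 ± 0.13) and Tie1 (0.54 ± 0.13), were called higher and 0 lower (median 0.23), and of the 6 lymphatic markers Mmrn1 was called higher (1.20 ± 0.32) and Pdpn lower (-0.35 ± 0.10, median 0.20), against 3.79% of all genes lower and 5.96% higher. Between A83-01 and DMH-1, 6 of the 8 blood endothelial markers were called lower and 1 higher with A83-01 (median -1.51), and 4 of the 6 lymphatic markers lower and 0 higher (median -1.15), against 13.4% of all genes lower and 11.9% higher. Among them were Mmrn1 (-3.40 ± 0.36), Sox18 (-2.77 ± 0.16) and Cdh5 (-2.01 ± 0.31), beside -2.82 for Lyve1. Summed macrophage markers ran from 6.90 to 7.61 CPM in the controls and from 8.58 to 14.5 CPM with A83-01. Among the fibroblast markers, Col1a1 (-1.11 ± 0.13), Col3a1 (-1.06 ± 0.13) and Fap (-1.30 ± 0.25) were among those called lower with A83-01. Dcn (0.90 ± 0.09) was the only fibroblast marker called higher. The part of endothelial and fibroblast RNA in the values of the 3 genes with the inhibitors and between A83-01 and DMH-1 was not tested.

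Untreated D/KO cells of this table held more of all 3 genes than WT tail tip cells. In the WT tail tip libraries Lyve1 read 1.68, 2.36 and 1.36 CPM, Adgrg3 0.373, 0.775 and 0.453 CPM and Cxcl15 0.522, 0.233 and 0.124 CPM. Each was below every control D/KO library. The edgeR log2 differences, D/KO minus WT, were 3.94 ± 0.31 for Lyve1 (adjusted p = 3.21e-08), 4.57 ± 0.28 for Adgrg3 (adjusted p = 1.07e-09) and 4.55 ± 0.31 for Cxcl15 (adjusted p = 3.94e-09), in a comparison where 40.2% of all genes were called. All 3 control D/KO libraries, but only 2 of 3 WT libraries for Adgrg3 and 1 of 3 for Cxcl15, were over the minimum level of the filter, and with no filter on low counts the differences were 4.57 and 4.55. The blood endothelial markers summed to 364 to 403 CPM in control D/KO and 80.9 to 100.1 CPM in WT tail tip libraries, with Cdh5 higher by 3.39 ± 0.33 on the log2 scale, and their part in the result was not tested. At day 0 of the reprogramming table Cxcl15 stood the other way, at 31.1% of the WT level in D/KO cells.

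WT skin cells held more Lyve1 and Adgrg3 than WT tail tip cells. Lyve1 read 10.4, 20.1 and 15.02 CPM and Adgrg3 1.70, 6.59 and 4.33 CPM in skin, all above tail tip, with log2 differences of 3.07 ± 0.34 (adjusted p = 4.99e-07 by edgeR) and 2.97 ± 0.40 (adjusted p = 5.08e-06 by edgeR). For Adgrg3, 5 of the 6 libraries compared were over the minimum level of the filter, and tail tip replicate 1 (0.373 CPM) was under it. Cxcl15 had 0 counts in all 3 skin libraries and 23 in the tail tip libraries, at least 6.26-fold lower at a floor of 3 counts over the group. No test is given for it, since Cxcl15 passed the filter in that table only through the D/KO groups. Of all genes, 34.2% were called between these tissues. Summed blood endothelial markers were also higher in skin, at 214 to 292 CPM, and their part in the result was not tested.

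Over the inhibitor table the order of Lyve1 was control D/KO, DMH-1, WT skin, Vactosertib, Repsox, A83-01, WT tail tip and WT 4F, in which the first 5 overlapped their neighbours and Repsox was separate from A83-01. Adgrg3 was ordered alike, except that WT skin stood beside A83-01 and WT tail tip was lowest. For Cxcl15 the 4 highest groups, control D/KO (7.01 ± 0.570 CPM), DMH-1, Repsox and Vactosertib (5.38 ± 1.18), overlapped in turn, A83-01 and WT tail tip were each separate from their neighbours, and the last 2 groups were both at 0.

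Genes with the most similar pattern over the 36 reprogramming libraries were read by Pearson's r of log2 CPM, as a description, since all points share the D/KO and WT split. For Lyve1 they were Abcc9 (r = 0.96), Dusp2 (0.96), Gpihbp1 (0.96), Kcne3 (0.95) and Mmrn1 (0.95). Gpihbp1 is known from capillary endothelium and Mmrn1 from lymphatic endothelium. For Adgrg3 they were Stab1 (0.96), Slco4a1 (0.95), Gimap6 (0.94), Gpihbp1 (0.94) and Apold1 (0.94), where Stab1 is a scavenger receptor of sinusoidal endothelium and macrophages that also belongs to the hyaluronan receptor list. Lyve1 and Adgrg3 had r = 0.94 with each other, at place 7 of 15831 genes for Lyve1, whereas their r with Cxcl15 was 0.06 for both. Those of Cxcl15 were Ccdc102a (0.96), Maged2 (0.95), Slc39a13 (0.95), Efemp2 (0.94) and Mmp23 (0.94), of which Efemp2 encodes a protein of elastic fibers.

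In the 24 inhibitor libraries the same pairs gave r = 0.39 for Abcc9 and from 0.86 to 0.94 for the other 4 genes of Lyve1, and from 0.58 to 0.84 for those of Adgrg3. For Cxcl15, Efemp2 kept a high r of 0.82, Ccdc102a had 0.19 and Mmp23 0.12, while Maged2 (-0.64) and Slc39a13 (-0.62) turned sign. In that table all 3 genes had positive r among each other, from 0.62 to 0.69. Dusp2, a phosphatase of MAP kinases, illustrates the Lyve1 pattern, with 11.2 ± 3.82 CPM at D/KO day 0, 0.641 ± 0.0859 at day 4, 0 in the WT day 0 libraries and 0.821 ± 0.0727 with A83-01 against 4.15 ± 0.406 in its controls.

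Relatives of Lyve1 did not all share its pattern. Cd44, the main cell surface receptor for hyaluronan, read 484 ± 76.5 CPM at D/KO day 0 and 736 ± 68.9 at day 4, and it rose in WT cells at day 4 plus VC by 0.62 ± 0.11 (adjusted p = 1.18e-05 by edgeR). With A83-01 Cd44 fell by 0.80 on the log2 scale (adjusted p = 1.47e-06 by edgeR). Stab1 read 329 ± 22.8 CPM at D/KO day 0 and 40.9 ± 3.41 at day 4, but under A83-01 it had a log2 difference of only -0.32 ± 0.22 (adjusted p = 0.3 by edgeR). Stab2 stayed between 0.0765 and 1.35 CPM in group means. Of the 15 genes for hyaluronan receptors and binding, which include Lyve1, 11 were tested with A83-01, of which 7 were called lower and 0 higher (edgeR, median log2 change -1.32 beside 0.00 for all genes), against 16.2% of all genes called lower and 16.4% higher. The part of the endothelial and fibroblast markers, which also moved with A83-01, was not tested. Among the hyaluronan genes the largest change was in Bcan, a hyaluronan-binding proteoglycan, at -3.60 ± 0.35 (adjusted p = 4.81e-07 by edgeR). In WT cells at day 4 plus VC, the 6 libraries compared brought only 7 of these genes past the filter by themselves, of which 4 were called lower and 1 higher (median -0.72, beside 0.03 for all genes), against 22% and 22.7% of all genes, led by Bcan, with 3 counts at day 4 plus VC against 60. Counts of listed genes in this comparison and with A83-01 are given in this way from here on. The shares of all genes cover every gene past the filter over all libraries fitted together. Of 8 genes for hyaluronan synthesis and breakdown, 2 were called lower and 0 higher with A83-01 (median -0.11), the synthases Has2 (-2.42 ± 0.13) and Has1 (-2.01 ± 0.47), and in WT cells at day 4 plus VC 4 of 9 were called higher, among them Has1 (3.58 ± 0.57) and Has3 (1.55 ± 0.56), and 2 lower (median 0.02).

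The neighbours of Adgrg3 showed smaller differences. Adgrg1, the gene just before it, read 21.2 ± 4.64 CPM at D/KO day 0 and 10.4 ± 2.02 at day 4, and under A83-01 its log2 difference was -0.40 ± 0.17 (adjusted p = 0.0898 by edgeR). Adgrg5 was at or below 0.624 CPM in the D/KO groups of the reprogramming table. Of 19 adhesion G protein-coupled receptors, Adgrg3 included, 4 were called lower and 4 higher with A83-01 (edgeR, median 0.05), against 16.2% and 16.4% of all genes. The 2 largest called changes were rises of Adgre1 (2.31 ± 0.73) and Adgrb1 (1.96 ± 0.55), while Celsr3, which was not called, had -2.20 ± 0.89. In WT cells at day 4 plus VC, of 14 such genes without Adgrg3, 8 were called lower and 3 higher (median -0.68), against 22% and 22.7% of all genes, the largest called change being a rise of Adgrg2 (2.79 ± 0.19).

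Other CXC chemokines were read beside Cxcl15. Cxcl5, a ligand of the neutrophil receptor Cxcr2, read 557 ± 224 CPM in D/KO cells with VC on day 0 and 83.2 ± 25.2 CPM on day 4. It fell in WT cells at day 4 plus VC by 1.49 on the log2 scale (adjusted p = 7.84e-06 by edgeR) and with A83-01 by 2.03 (adjusted p = 7.38e-08 by edgeR). Cxcl1 fell with A83-01 by 0.97 (adjusted p = 0.000273 by edgeR), while in WT cells at day 4 plus VC it had a log2 difference of 0.11 ± 0.37 (adjusted p = 0.838 by edgeR). Of 9 CXC chemokines, Cxcl15 included, 8 were called lower and 0 higher at WT day 4 plus VC (edgeR, median -1.69), against 22% and 22.7% of all genes, led by Cxcl10 (-4.43 ± 0.93). With the filter used for all genes, 10 CXC chemokines besides Cxcl15 were tested, of which 7 were called lower and 0 higher (median -1.59). The part of the fibroblast and macrophage markers, which moved in the same comparison, was not tested. With A83-01, 6 of 8 CXC chemokines were called lower and 1 higher (median -1.05), against 16.2% and 16.4% of all genes, led by Ppbp (-5.10 ± 0.24) and Cxcl3 (-3.86 ± 0.56). The part of the endothelial and fibroblast markers, which also moved with A83-01, was not tested. Of 3 receptors, Cxcr4 (-5.62 ± 0.39) and Cxcr6 (-3.34 ± 0.75) were called lower with A83-01 and Ackr3 higher (0.56 ± 0.11). At WT day 4 plus VC, of 2 receptors, Cxcr6 was called lower (-3.18 ± 0.66) and Ackr3 higher (0.32 ± 0.12).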

How the data were processed

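RNA was sequenced in 60 libraries (paired-end, 150 bp). Per the labels and the study's methods, the authors checked reads with FastQC, trimmed them with Trim Galore, aligned them to GRCm39 with HISAT2 and counted them with featureCounts (Subread). What they deposited are raw counts for each gene, beside its summed exon length. Tool versions, annotation release and strand setting are not given in the sources used here.

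Symbols came from GENCODE M39 (56236 of 56980 identifiers, 98.7%). Library sizes were scaled with the TMM method (edgeR 4.0.16 in R 4.3.3), and genes were filtered by filterByExpr (minimum count 10, minimum total 15), which left 15832 genes over 36 libraries, 15164 over the 18 inhibitor libraries without WT skin and WT 4F, and 15652 over all 24, used for skin against tail tip. Over 13 comparisons, two-sided quasi-likelihood tests were adjusted by Benjamini-Hochberg over all genes, with a threshold of 0.05. The baseline of each reprogrammed WT group was day 0 with the same VC status. CPM of the inhibitor table used all 24 libraries. log2 CPM for likeness used a prior count of 2. The script was tested on simulated data with 200 changed genes: it recovered 98% of 4-fold and 85% of 2-fold changes for WT day 4 plus VC (15832 genes), and 99% and 84% for A83-01 (15164 genes). Count intervals are exact, cover counting error only, and the floor was 3 counts over a group. No 2 libraries were identical, and replicates varied at least 3.18 times more than counting noise.

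The 3 genes and all gene lists were chosen with earlier results of these data known. Genes named beside them are relatives and chromosomal neighbours, the 5 most similar in pattern, those ranked just above and below in D/KO day 4 with and without VC, and the 2 largest called changes of each list for WT day 4 plus VC and A83-01, less those that passed the filter only through other groups (Tnfaip6 and Ackr1 in WT cells). Genes outside this rule, such as Cdh5, Pecam1, Tie1, Prox1 and Tek, are from the endothelial marker lists and were singled out after their values were seen. Alternatives were DESeq2 1.42.0, its size factors, other filters, other sets of libraries, another baseline and each library left out. Doses of the inhibitors come from the study's methods.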

Additional observations from a re-analysis of the deposited data

Results flagged for a closer look

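In the WT 4F libraries labelled TGFB, which entered no comparison, Adgrg3 read 2.07 ± 0.443 CPM (39, 42 and 56 counts), and each library was above every WT tail tip control (0.534 ± 0.213 CPM), while Lyve1 had 4, 0 and 2 counts and Cxcl15 none. At day 0, Adgrg3 read lower in each D/KO library with VC than in those without it (ratio of means 0.410). In WT cells each library with VC read higher (ratio 4.91), but on 21 against 5 counts, near the limit of detection. The difference between the 2 lines was not tested. Cxcl15 in untreated D/KO cells was below every WT library at day 0 of the reprogramming table (ratio 0.311) and above every WT tail tip library of the inhibitor table (ratio 23.97). That difference was not tested, and the mice, ages and WT lines differ between the tables.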

How the results depend on the processing

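Of 22 called results among the 39 of the 3 genes over 13 comparisons, 16 kept their direction and their call under all alternatives run, and no uncalled result became called. In these comparisons from 0% to 44.7% of all genes tested were called. In 4 of the 22, Adgrg3 in WT cells (3) and Cxcl15 in skin against tail tip, the gene passed the filter on low counts only through the D/KO groups, so these calls support nothing. Adgrg3 in WT cells, on 21 counts or fewer per group, lost its call with only the 2 groups compared at day 4 plus VC (-1.92) and for VC alone (2.21), and with day 0 without VC as baseline it gave -1.05 at day 2 plus VC and turned to 0.30 at day 4 plus VC. Adgrg3 under Repsox lost its call with only the 2 groups compared (-0.62) and with all 24 libraries (-0.60), and Cxcl15 in skin against tail tip with only the 2 groups compared (-5.80, adjusted p = 0.0574 by edgeR). Where leaving out single libraries lost a call in some or all of 6 settings, the log2 changes over all 6, calls kept and lost, ranged from -1.30 to -1.01 for Cxcl15 at WT day 2, from -2.88 to -1.35 for Adgrg3 at WT day 4 plus VC, from 1.65 to 3.74 for VC alone, and from -0.68 to -0.46 under Repsox. The fitted Adgrg3 change at WT day 2 plus VC ranged from -5.98 to -2.80.

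Genes called with only the 2 groups compared were 6487 against 3880 for WT day 4, 2229 against 3820 for Repsox and 2572 against 5348 for skin against tail tip, and DESeq2 called 8 against 0 for Repsox against Vactosertib. The causes were not tested. Of the 5 genes most like each member, Spearman's rho shared 1 for Lyve1, 2 for Adgrg3 and 2 for Cxcl15, and a prior count of 0.5 shared 4, 3 and 3, so these names depend on the measure. No paired analysis was possible because the labels number the libraries serially within a table and give no replicate number shared between groups. Depth limits Lyve1 and Adgrg3 in WT reprogramming cells, where each library held from 0 to 9 counts.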
